A study of Homo sapiens with 3 samples.

Results

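Human chromosome 19 was taken as a single stretch of chromatin on which to describe where the transcription factor FOXA2 was found in Caco2 cells. Its members are all peaks on chromosome 19 of the deposited FOXA2 peak lists, 1347 of the 90856 peaks in all, with 997 of 63949 in replicate 1 and 350 of 26907 in replicate 2. The chromosome and the intervals described on it were chosen from the peak counts of these data. The counts that follow are therefore a description, without a test. Caco2 is an established human colorectal adenocarcinoma line that forms enterocyte-like monolayers, grown here in low-glucose medium with serum and given no treatment. The study holds 3 libraries, 2 chromatin immunoprecipitations with a FOXA2 antibody and 1 input without antibody, against which the peaks of each replicate were called. Nothing in the labels tells whether separate cultures were used, so differences between the replicates may be technical.

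FOXA2 is a forkhead protein of endoderm-derived epithelia that can bind its motif on nucleosomal DNA and is therefore called a pioneer factor. Chromosome 19 is known for its high gene density and for its clusters of zinc finger genes. These encode the KRAB zinc finger proteins, which silence transposable elements, and their clusters carry repressive chromatin in many cell types. In the RefSeq gene table of GRCh38.p14, used here for names, numbers and order only, chromosome 19 has 1451 protein-coding genes, second to chromosome 1. Of these, 250 have a symbol that starts with ZNF and a number, which is 48.4% of the 517 such genes on chromosomes 1 to 22 and X. In gene order the longest uninterrupted run of ZNF genes goes from ZNF737 to ZNF681 and holds 27, and the next, from ZNF627 to ZNF791, holds 24.

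All positions are on hg19 and counted from 1. Each peak carries the authors' score, read as the peak's tags (sequenced fragment ends) per 10000000 tags of the library. Replicate 1 held 26183147 tags, so each score unit equals 2.62 of them, and replicate 2 held 15756702, where a unit equals 1.58. A site is called shared where peaks of both replicates have at least 1 bp in common, and its position is that of the replicate 1 peak. The shared pair with the shortest overlap on the chromosome had 31 bp in common, with scores of 24 and 12. The closest pair that did not overlap lay 132 bp apart, with scores of 14 and 26. Its replicate 2 peak, however, overlaps another replicate 1 peak, in the shared site at 45119279, with scores of 30 and 26. No hg19 gene annotation or sequence was used, so sites are named by position and not by gene.

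FOXA2 sites were sparse on this gene-rich chromosome. Chromosome 19 held 320 shared sites, or 22.1 for every 100 protein-coding genes, the lowest number of 23 chromosomes, against 121.9 over the genome. Chromosome 22 came next with 52.8, chromosome 17 had 67.3, and chromosomes 20 and 11 had 112 and 123. Per Mb that held any peak, chromosome 19 had 5.61 shared sites, against 8.59 over the genome, and only chromosome X had fewer, with 4. Chromosome 22 had 6.8, chromosomes 17 and 20 had 9.84 and 9.85, and chromosome 11 had 12.2. The gap to the genome was thus smaller per Mb than per gene, where the many genes of chromosome 19 are the divisor. These numbers are not corrected for how many copies of each chromosome Caco2 cells carry, which was not measured here.

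**Figure D1:**
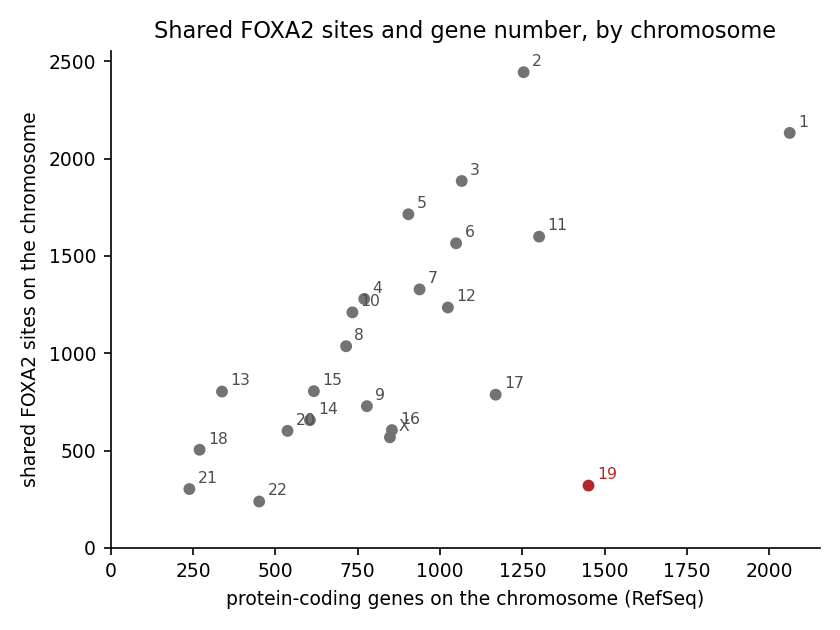
Each point is a chromosome (1 to 22 and X), with its protein-coding genes in the RefSeq table on the x axis and its shared FOXA2 sites on the y axis. Chromosome 19, in red, lies far to the right of the chromosomes with as few sites, with 1451 genes and 320 sites.

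Nearly all replicate 2 peaks of the chromosome were found in replicate 1. Of the 350, 320 were shared, which is 91.4% (95% Wilson interval 88% to 93.9%), beside 90.5% over the genome. Of the 997 replicate 1 peaks, 32.1% were shared (29.3% to 35.1%), beside 38.1% over the genome. The first share does not differ from the genome beyond its interval, and the second lies below it. Chromosome 20 also had 32.1%, and chromosomes 22 and 17 had 34.0% and 34.8%, which lie within the interval of chromosome 19.

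Replicate 1 had 2.85 times as many peaks as replicate 2 on chromosome 19 (interval 2.52 to 3.22, counting error only), the highest ratio of the 23 chromosomes. The ratio was 2.81 on chromosome 20, within that interval, and 2.38 over the genome. It was larger among weak peaks. The lowest score was 3 in the replicate 1 list and 5 in the replicate 2 list, each near 7.9 tags. Scores below 5 were thus called in replicate 1 only, and the part of depth in this ratio was not tested. The headers give false discovery rate thresholds of 11 tags in replicate 1 and 10 in replicate 2. The 7.9 tags, taken from rounded scores, are therefore not the calling threshold. Among peaks with a score of at least 10, 354 in replicate 1 and 219 in replicate 2, the ratio was 1.62 on chromosome 19, beside 1.45 over the genome, 1.62 on chromosome 17 and 1.81 on chromosome 20. The replicate 1 list of chromosome 19 held more weak peaks, with 31.3% at a score of 5 or less against 27.5% over the genome.

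**Figure D2:**
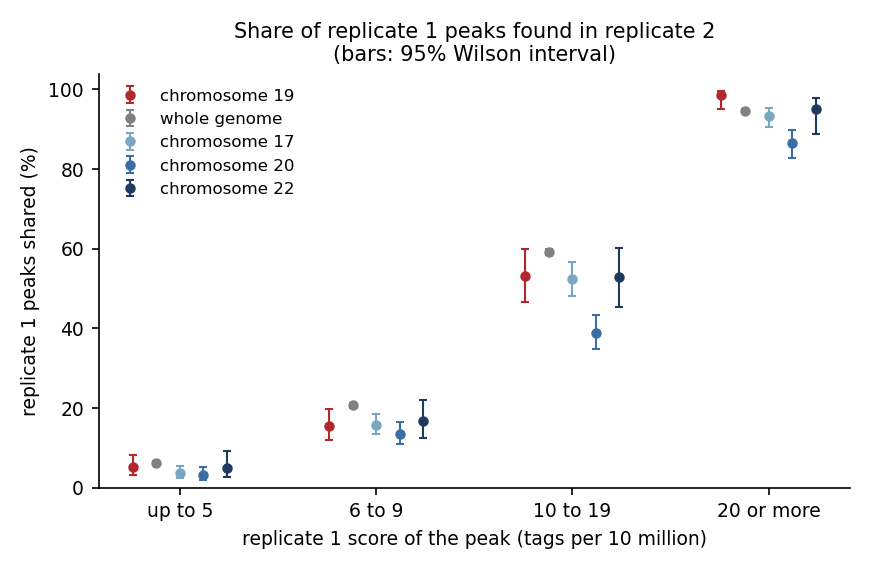
The percentage of replicate 1 peaks that overlap a replicate 2 peak is on the y axis, by class of replicate 1 score on the x axis, with 95% Wilson intervals. On chromosome 19, in red, it goes from 5.13% at scores up to 5 to 98.6% at scores of 20 or more.

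Strong replicate 1 peaks of chromosome 19 were nearly all shared and weak ones rarely were. Of the 142 replicate 1 peaks with a score of 20 or more, 140 were shared, which is 98.6% (95% to 99.6%), beside 94.6% over the genome and 86.7% on chromosome 20. At scores of 10 to 19 it was 53.3% (46.6% to 59.9%), beside 59.2% over the genome, which lies within the interval. At 6 to 9 it was 15.4% (11.9% to 19.7%), beside 20.7%, which lies above it. At scores up to 5 it was 5.13% (3.18% to 8.17%), beside 6.25%, again within the interval. Of the 4 classes, only that of 6 to 9 thus lay below the genome beyond its interval. In that class chromosomes 20, 17, 22 and 11 had 13.5%, 15.9%, 16.8% and 17.5%, all within the interval of chromosome 19. The low share is thus not particular to it. A weak peak counts as shared only if each library called it, so one that replicate 2 lacks may still be bound.

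Along the chromosome, the long arm held more FOXA2 than the short arm. The interval from 24600001 to 27700000 was taken as the centromere. It holds no peak. In 1 Mb bins, FOXA2 sites were unevenly spread, with the fullest bins on the long arm. The 5 bins with most shared sites held 78 of the 320, or 24.4%, and 14 of 60 bins held 50% of them. Among these 14 are the short-arm bin from 11 to 12 Mb, with 9, and the bin from 53 to 54 Mb, with 10. The latter lies wholly in a zinc finger gene cluster.

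**Figure D3:**
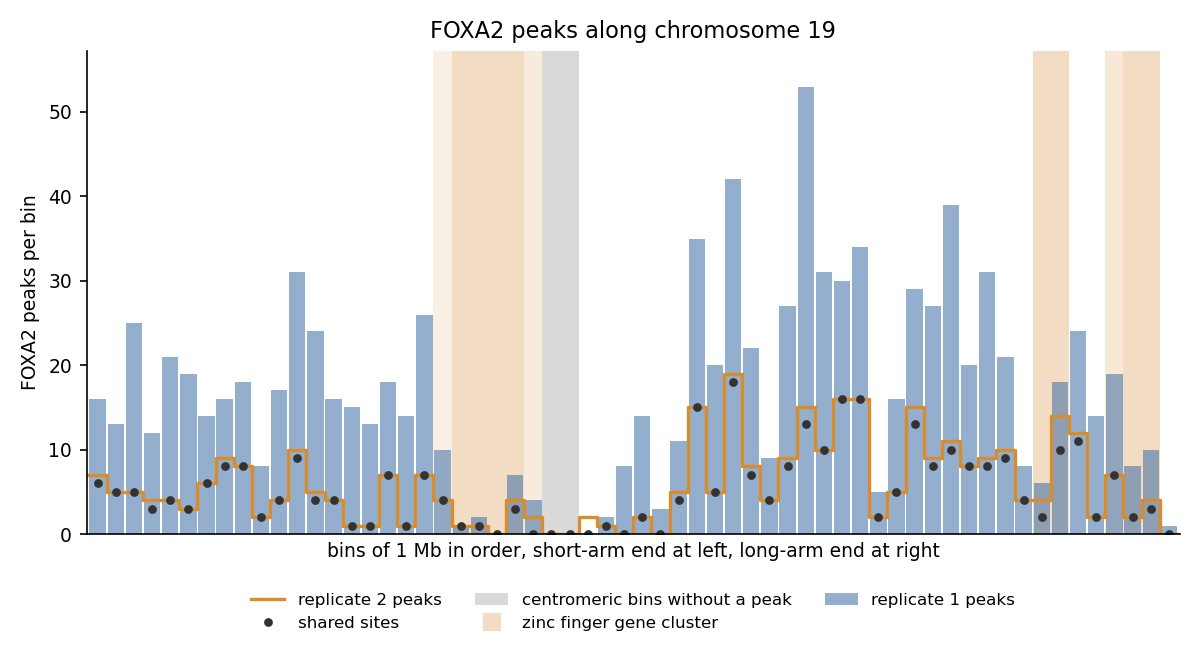
Peaks of replicate 1 (bars), peaks of replicate 2 (line) and shared sites (dots) are given for each 1 Mb bin, in order from the short-arm end, with bins that touch a zinc finger gene cluster shaded. The highest bin of shared sites is on the long arm with 18, and the shading nearest the centromere covers bins with at most 4 shared sites.

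The bin from 35 to 36 Mb had the most shared sites, 18, from 42 replicate 1 and 19 replicate 2 peaks. The bins from 41 to 42 Mb and from 42 to 43 Mb had 16 each, and the bin from 33 to 34 Mb had 15. The bin from 39 to 40 Mb had 13, but the most replicate 1 peaks of any, 53. All 5 are on the long arm. Their sites were not all strong. In the bin from 42 to 43 Mb the median score of shared sites was 27.5 in replicate 1 and 14 in replicate 2, and in the bin from 39 to 40 Mb it was 16 and 11.

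The number of peaks per bin in the replicates rose together over the 58 bins outside the empty centromeric ones (Spearman's rho 0.86, Pearson's r 0.84). These bins belong to the same 2 libraries and are not independent. The median bin held 16 replicate 1 peaks, 5 replicate 2 peaks and 4 shared sites. Outside the centromere, shared sites were missing from the bins of 22 to 23 Mb, 24 to 25 Mb, 29 to 30 Mb and 31 to 32 Mb, from the bin of 27 to 28 Mb at its edge and from the last, incomplete bin. The bin from 29 to 30 Mb held 8 replicate 1 peaks and no replicate 2 peak, so it was not without signal. The bin from 22 to 23 Mb held no peak of either replicate.

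Per Mb, the long arm had 7.11 shared sites (95% Poisson interval 6.20 to 8.10) and the short arm 3.99 (3.24 to 4.87), a 1.78-fold difference. The arms hold 223 and 97 shared sites. In replicate 2 alone the long arm was 1.81 times as dense, with 7.81 peaks per Mb against 4.32. In replicate 1 alone it was 1.37 times as dense, with 20.3 against 14.8. The direction was the same in both libraries and the intervals did not overlap in either, but the size differed between them. These intervals cover counting error only, since peaks lie in groups. With the zinc finger gene clusters left out of both arms, the shared density was 7.55 on the long arm and 4.62 on the short arm, a 1.64-fold difference.

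Of the replicate 1 peaks, 35.0% were shared on the long arm (31.4% to 38.8%) and 26.9% on the short arm (22.6% to 31.8%), with intervals that overlap. Of the replicate 2 peaks it was 91.0% and 92.4%, and of replicate 1 peaks with scores of 10 to 19 it was 51.4% and 57.8%, the other way round. Replicate 1 had 3.43 times as many peaks as replicate 2 on the short arm and 2.60 times as many on the long arm. The median replicate 1 score was 7 on the short arm and 8 on the long arm, and 10.8% and 16.2% of the peaks scored 20 or more. The short arm thus held fewer peaks and a smaller percentage of strong ones in replicate 1.

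The 3 zinc finger gene clusters were taken at the positions given for them: 19800001 to 24400000 on the short arm next to the centromere, 52000001 to 54000000 on the long arm, and 56500001 to 59000000 near the end of the long arm. They are called here the short-arm, the inner long-arm and the distal long-arm cluster. Their gene content was not checked on hg19, and chromosome 19 has further clusters of zinc finger genes elsewhere. The remainder of the chromosome is therefore not free of them. At the edges, the first shared site inside the short-arm cluster scored 5 in replicate 1 and 7 in replicate 2, and the last one before it 18 and 10. The last site inside the inner long-arm cluster scored 35 and 39, and the next one, 0.76 kb beyond its end, 7 and 24. The first site inside the distal cluster scored 26 and 15, and the last before it 16 and 17.

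FOXA2 sites were fewer in the clusters as a whole, but the 3 clusters were not alike. Over 9.1 Mb the clusters held 66 replicate 1 peaks, 36 replicate 2 peaks and 26 shared sites. That is 2.86 shared sites per Mb (1.87 to 4.19), against 6.31 (5.61 to 7.07) over the 46.6 Mb of the remainder, or 2.21 times fewer. In replicate 1 the density was 7.25 against 20, 2.75 times lower, and in replicate 2 it was 3.96 against 6.74, 1.70 times lower. The direction was the same in both libraries. The ratio of shared densities, clusters to remainder, was 0.45 over the full length and 0.78 over occupied windows of 100 kb. Occupied windows are those with a peak of either replicate, 41.8% of the clusters and 72.1% of the remainder. The second ratio therefore leaves out the empty parts and does not measure the same depletion. How much of the clusters reads can be mapped to was not examined, and its part in these counts and in the peak-free stretches below was not tested.

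**Figure D4:**
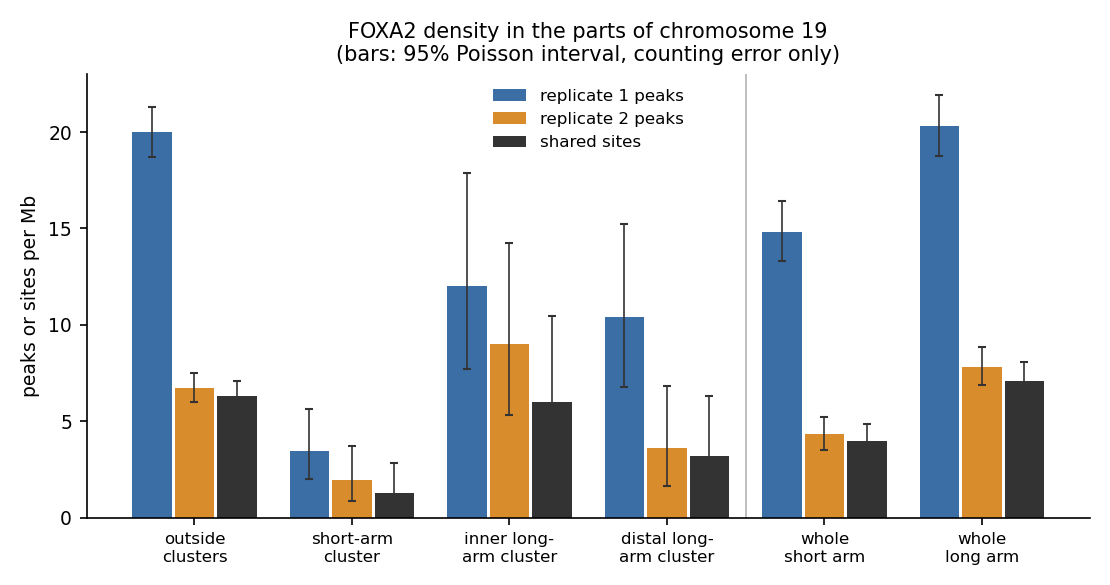
Peaks of replicate 1, peaks of replicate 2 and shared sites per Mb (y axis) are given outside the clusters, in each cluster and over each whole arm, with 95% Poisson intervals. The short-arm cluster is lowest for all 3 counts, with 1.30 shared sites per Mb, and the inner long-arm cluster, with 6, overlaps the value outside the clusters.

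The short-arm cluster was the emptiest. It held 16 replicate 1 peaks, 9 replicate 2 peaks and 6 shared sites in 4.6 Mb, or 1.30 shared sites per Mb (0.48 to 2.84). This was 3.54 times fewer than in the remainder of its own arm. The windows of 100 kb with a peak of either replicate made up 26.1% of it, against 71.0% of the remainder of the arm. A stretch of 2.07 Mb from 21393124 to 23461082 and another of 0.85 Mb from 20344256 to 21196893 had no peak. These are the second and the third longest such stretches of the chromosome, after the one across the centromere, 3.45 Mb from 24324634 to 27778856.

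The inner long-arm cluster showed no depletion of shared sites beyond counting error, but its interval is too wide to exclude one. It had 12 in 2 Mb, or 6 per Mb (3.10 to 10.5), and its interval holds the values of the remainder of the chromosome, 6.31, and of the remainder of the long arm, 7.55. The replicates disagreed here. Replicate 1 had 12 peaks per Mb (7.69 to 17.9), 1.67 times fewer than outside the clusters. Replicate 2 had 9 (5.33 to 14.2), or 1.34 times as many as outside, with the value outside, 6.74, in its interval. The distal cluster, with 26 and 9 peaks and 8 shared sites in 2.5 Mb, had 3.2 shared sites per Mb (1.38 to 6.31). It was 1.92 times less dense than outside the clusters in replicate 1 and 1.87 times less dense in replicate 2.

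Peaks of replicate 2 in the clusters were less often shared than elsewhere. Of the 36 peaks, 26 were shared, which is 72.2% (56.0% to 84.2%), against 93.6% (90.4% to 95.8%) outside, 21.4 percentage points more. With the clusters widened by 0.5 Mb on each side the gap was 12.5 points. The distal cluster had 8 of 9 shared, or 88.9%, and the short-arm and inner long-arm clusters had 66.7% each. The clusters held 10 of the 30 replicate 2 peaks of the chromosome that replicate 1 lacks, and 6 of these 10 lay in the inner long-arm cluster. For replicate 1 peaks the share went the other way, with 39.4% (28.5% to 51.5%) in the clusters and 31.6% (28.7% to 34.6%) outside, a difference within the interval. Replicate 1 had 1.83 times as many peaks as replicate 2 in the clusters (1.22 to 2.74) and 2.96 times as many outside (2.61 to 3.37). The high ratio of the chromosome was thus not set by its clusters.

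Peak scores in the clusters did not stand apart from the remainder when all peaks were taken. The median was 6 in the clusters and 7 outside in replicate 1, and 10.5 and 11 in replicate 2. Scores of 20 or more were carried by 12.1% of the 66 replicate 1 peaks in the clusters and by 14.4% of the 931 outside, and in replicate 2 by 30.6% of 36 and 23.6% of 314. The highest score in the clusters was 44 in replicate 1 and 42 in replicate 2, and 171 and 105 among the far more numerous peaks outside. Summed scores per Mb, which combine the number of peaks with their height, were 72.1 in the clusters and 246 outside in replicate 1. In replicate 2 they were 64.1 and 112. The clusters thus held 0.29 and 0.57 of the signal in peaks per Mb that the remainder had.

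At the sites found in both replicates, the balance of the scores in the clusters as a whole differed from that of the remainder, but in the distal cluster on its own it lay within the counting error. Outside the clusters, 217 of 294 sites scored higher in replicate 1, and the score in replicate 1 was at the median 1.375 times that in replicate 2. In the clusters, 11 of 26 scored higher in replicate 1 and 13 in replicate 2, and the median was 0.96 times. The percentage with the higher score in replicate 2 was 50% in the clusters (32.1% to 67.9%) and 21.4% outside (17.1% to 26.5%), beside 29.7% over the genome. In the distal cluster 5 of 8 sites scored higher in replicate 1, with a median of 1.29 times, and the percentage higher in replicate 2, 37.5% (13.7% to 69.4%), holds the value outside in its interval. In the short-arm cluster it was 66.7% of 6 sites and in the inner long-arm cluster 50% of 12. Sites at least 2 times higher in replicate 2 numbered 4 of 26 in the clusters (15.4%) and 8 of 294 outside (2.72%), beside 2.64% over the genome. The site just beyond the inner long-arm cluster, with 7 and 24, is among the 8. Sites at least 2 times higher in replicate 1 numbered 2 of 26 (7.69%) and 52 of 294 (17.7%), beside 12.4% over the genome. Depth, fragment length and peak width differed between the libraries, and their part in this was not tested.

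**Figure D5:**
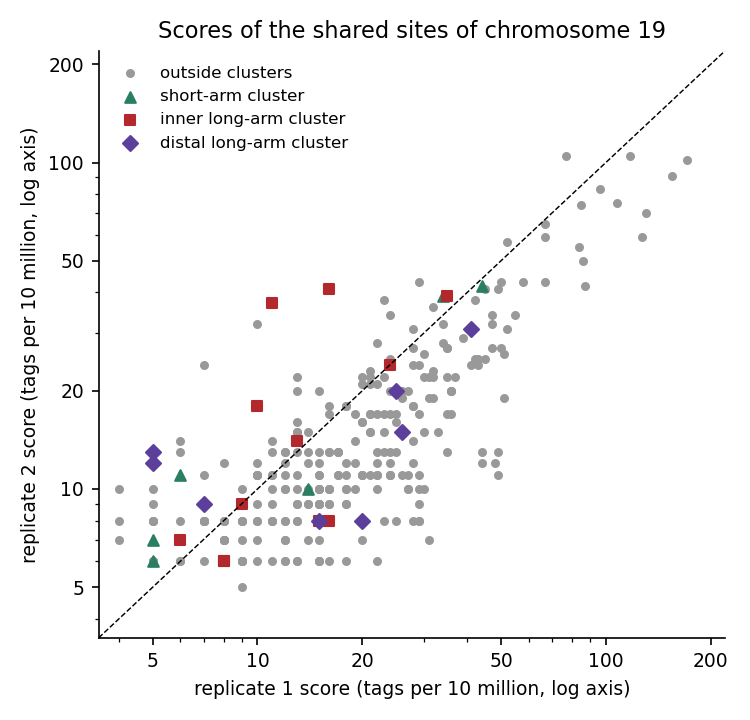
Each point is a shared site of chromosome 19, with its replicate 1 score on the x axis and its replicate 2 score on the y axis, both on log axes, and the dashed line marks equal scores. Most sites outside the clusters (grey) lie below the line, while 13 of the 26 cluster sites lie above it, among them the inner long-arm sites at 11 and 37 and at 16 and 41.

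The short-arm cluster had 6 shared sites, of which a pair was strong. The site at 21393001 to 21393123 scored 44 in replicate 1 and 42 in replicate 2 (mean 43 ± 1.41, SD, n = 2), which puts it among the 9.87% best-ranked shared sites of the genome. It is the only one of 26 cluster sites in the genome's best 10%, beside 21 of 294 outside, too few to tell them apart. The nearest shared neighbour of this site lay 1049 kb away. Of the chromosome's shared sites only the one at 28993904, with scores of 8 and 7, was farther from any other. The site at 23574219 to 23574341 scored 34 and 39 (36.5 ± 3.54). The remaining 4 had mean scores between 5.5 and 12, the best of them at 23957727 to 23957849 with 14 and 10.

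In the inner long-arm cluster the best-ranked site was at 53923879 to 53924001, with scores of 35 and 39 (37 ± 2.83, n = 2). At the site at 53700550 to 53700672 the replicates were equal, with 24 each. They were far apart at 2 others. At 53227601 to 53227723 the score was 11 in replicate 1 and 37 in replicate 2, a 3.36-fold difference. At 53448614 to 53448736 it was 16 and 41, a 2.56-fold difference. Both are higher in the shallower library. Mean scores of the 8 weaker sites of this cluster lay between 6.5 and 14.

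The called centres of the 2 replicates were also farther apart in this cluster. At 5 of its 12 shared sites they differed by more than 50 bp, against 11 of 294 outside the clusters and 8.46% over the genome. At all 5, the replicate 2 centre lay at the lower coordinate, by 51 to 102 bp. Most of these sites were weak, with scores of 6 to 15 in either replicate except for the one at 53227601. Among the 29 full windows of 2 Mb with a peak, which leave out the incomplete one at the end of the long arm, this one was 23rd by replicate 1 peaks and 7th by replicate 2 peaks, and it was first by peaks that replicate 1 lacks. This ordering was made after the values were seen.

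The distal cluster had 2.36 times fewer shared sites per Mb than the remainder of its arm. Its best-ranked site was at 58322376 to 58322498, with scores of 41 and 31 (36 ± 7.07, n = 2). Scores of 25 and 20 were found at 58214911 to 58215033, and of 26 and 15 at 56653690 to 56653812. Mean scores of the 5 weaker sites lay between 8 and 14. Among them, the sites at 56732754 and 57446246 scored 5 in replicate 1 but 13 and 12 in replicate 2. No shared site of the short-arm or distal cluster had another within 10 kb, against 8 of the 12 in the inner long-arm cluster.

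Of the 10 best-ranked shared sites of the chromosome, 8 lay on the long arm and none in a cluster. Over all 320 sites the long arm holds 69.7% and the clusters 8.125%, and of the best 32 it was 25 and 4, or 78.1% and 12.5%. With so few sites, these numbers do not set the strongest sites apart from the others by place. Ranked by the mean of its ranks in both replicates, the first site was on the short arm at 13162523 to 13162645, with 171 in replicate 1 and 102 in replicate 2 (136.5 ± 48.8, n = 2). It ranked 178th among the 24345 shared sites of the genome, within the best 0.73%. The next was on the long arm at 35497393 to 35497515, with 155 and 91 (123 ± 45.3). Again on the short arm, 18140416 to 18140538 scored 117 and 105 (111 ± 8.49). Its replicates were closer together than those of the 2 sites above it.

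The region from 33 to 34 Mb held 4 of the best 10. The replicates were close at 33767052 to 33767174, with 96 and 83 (89.5 ± 9.19), and closer at 33592170 to 33592292, with 67 and 65 (66 ± 1.41). Scores at 33193052 to 33193174 were 77 and 105, the only one of the 10 that was higher in replicate 2. The site at 33894628 to 33894750 scored 127 and 59, the widest gap, 2.15-fold. A further pair lay at 42 to 43 Mb, at 42408698 with 130 and 70 and at 42278569 with 108 and 75. The remaining one, at 54367787 to 54367909, scored 85 and 74 and had no other shared site within 88.8 kb. Together the 10 sites carried 15.2% of the summed score of the chromosome's shared sites in replicate 1 and 15.3% in replicate 2. Their called centres differed by at most 34 bp.

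Scores at the 320 shared sites rose together, with a Spearman's rho of 0.72, and on the log2 scale a Pearson's r of 0.77. These are correlations across sites of 2 libraries, given without a p-value. Over the genome they were 0.78 and 0.83. The log2 ratio of the replicates had an SD of 0.68 on chromosome 19, the highest of the 23 chromosomes, beside 0.62 over the genome. A deviation of over 2-fold from the genome's median ratio was seen at 45 sites of chromosome 19, which is 14.1% and also the highest percentage, with 11.9% on chromosome 12 next. At the median, the replicate 1 score was 1.36 times the replicate 2 score, beside 1.20 over the genome and 1.33 on chromosome 20. The count of 45 sites, taken from the genome's median, thus includes this shift as well as spread. Where both replicates scored 20 or more, at 74 sites, the SD was 0.41. A lower limit on both scores by itself removes sites with very unlike scores, so this SD cannot be compared with that of all sites.

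FOXA2 sites on chromosome 19 were mostly solitary. Of the 320 shared sites, 89 had another within 10 kb, which is 27.8% (23.2% to 33.0%), the lowest percentage of the 23 chromosomes and below the 39.0% of the genome. A lower density by itself gives fewer neighbours, and the part of density in this was not tested. The median score was 16 in replicate 1 and 13 in replicate 2 for sites with a neighbour, and 16 and 11 for those without. On the long arm 30.0% had a neighbour and on the short arm 22.7%. Peaks of replicate 1 alone were also less often beside shared sites, with 18.9% of 677 within 10 kb (16.1% to 22%), against 28.4% over the genome.

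No run of shared sites, each at most 10 kb from the next, was longer than 3 sites, while the longest in the genome had 10. These are maxima over 320 and 24345 sites, and a maximum grows with the number of sites. There were 7 runs of 3, which held 6.56% of the chromosome's shared sites, against 14.9% of the genome's in runs of 3 or more. All 7 were on the long arm outside the clusters. The strongest went from 48151591 to 48167333 and had scores of 84, 32 and 29 in replicate 1 and of 55, 23 and 24 in replicate 2. The run from 42985081 to 43002304 had 26, 43 and 29 in replicate 1 and 15, 25 and 17 in replicate 2. The run from 39142810 to 39150333 began with a site that scored 49 and 13, followed by 13 and 9 and by 15 and 8. At the first site of that run the replicates were far apart.

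Some peaks had no counterpart within 500 bp. There were 660 in replicate 1, or 66.2% of its peaks, and 30 in replicate 2, or 8.57%. By overlap, 32.1% of replicate 1 and 91.4% of replicate 2 peaks had a counterpart, beside 38.1% and 90.5% over the genome. Peaks without a counterpart are thus common in replicate 1 over the whole genome, and the replicate 2 share is near that of the genome. The strongest of replicate 1, at 48627235 to 48627357, scored 28, and the next, at 15408342 and 17133206, scored 20 and 19. In replicate 2 the strongest was at 36066476 to 36066626 and scored 57, which is above any such peak of replicate 1. The next pair, at 24183613 and 24184047, scored 28 and 30 and lay side by side in the short-arm cluster, 141 kb from the peak-free stretch over the centromere. A further pair on the far side of that stretch, at 27778857 and 27789229, scored 11 each.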

How the data were processed

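FOXA2 ChIP-seq peak lists of 2 replicates were used, and the input entered only through the peak calls. The submitters' processing notes name hg19, Bowtie 1.0.0 and HOMER 1.2. Per the file headers, the authors called peaks in each replicate separately with HOMER findPeaks (factor style) against the input, with a minimum of 4-fold over input and over the local 10000 bp, at a false discovery rate of 0.001. Replicates were not pooled. Widths in the deposited lists were 123 bp for replicate 1 and 151 bp for replicate 2, and the fragment lengths in the headers 88 and 110 bp. The deposited score is a whole number. Times library depth, its sum lay 0.45% and 0.20% above the tags in peaks that the headers give, so it was read as tags scaled by the authors to 10000000 and rounded.

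Overlaps, densities and intervals were computed with Python 3.11.15, numpy 2.4.6, pandas 2.3.3 and scipy 1.17.1. A peak belongs to the bin or interval that holds its midpoint. Densities outside the clusters use the span from the first to the last peak (290520 to 59085004) without the centromere. Shares have 95% Wilson intervals, densities 95% exact Poisson intervals, and ratios of peak numbers intervals from the Wilson interval of a share. All cover counting error only. No test was made, since the design has a single condition. Overlap detection was tested on simulated data. Sites named in the text are the 10 best shared sites by mean rank of score, the cluster sites, the 5 fullest bins, bins without a shared site, the best runs and the 3 strongest peaks of each replicate without a counterpart within 500 bp. The replicate 2 pair beside the centromere was added after its values were seen. The intervals, lists and rules were chosen with earlier results of these data known. The gene lists and motif search planned for an hg19 reference were not used here.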

Additional observations from a re-analysis of the deposited data

How the results depend on the processing

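The share of replicate 2 peaks that were shared lay between 89.4% and 91.7% under the 4 other definitions, and that of replicate 1 between 31.4% and 33.8% under 3 of them. It was 37.1% when the peaks at or above the median score of each list were used. The ratio of shared site density in the clusters to that outside, 0.45, stayed below 1 under every alternative. It was 0.78 over occupied windows of 100 kb, which leave out stretches without a peak. For the short-arm and the inner long-arm cluster on their own it was 0.21 and 0.95, and from a single replicate 0.36 to 0.59. With the clusters widened by 0.5 Mb it was 0.59. The gap in shared replicate 2 peaks, clusters minus outside, was -21.4 percentage points and -12.5 with widened clusters, and in replicate 1 it was 7.81 and, with narrowed clusters, 15.5. Differences in median score, clusters minus outside, were small and unstable. In replicate 1 the difference was -1, and it was 0 with widened and -0.5 with narrowed clusters, -3.5 for shared peaks and -0.5 for peaks of that replicate alone. In replicate 2 it was -0.5, and it was 0 with widened or narrowed clusters, 0.5 for shared peaks and 1.5 for the others, a reversed sign. The cause was not tested. The ratio of long-arm to short-arm density ranged from 1.37 to 1.81 over single replicates. The fullest bin held 19 to 53 peaks in single replicates, and the percentage of sites with a neighbour within 10 kb was 30.3% to 47.8% there. The ratio of replicate 1 to replicate 2 peaks fell to 1.62 at scores of at least 10. No paired analysis was possible because the single condition has no second group to pair. Cluster counts are small, so their intervals are wide, and the tag depth limits what can be said of weak peaks.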
